A study of Mus musculus with 2 samples.

Results

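The cells described here are thymic epithelial cells that carry transcripts of Ackr4, Scn1a, Ptprz1, Nrtn and Trpm3 in combination. They were chosen by a rule on raw UMI counts, where a UMI is 1 counted RNA molecule. Barcodes with 500 or more genes, 1000 or more UMIs and no more than 10% of UMIs from mitochondrial genes were considered, and a member had a UMI of at least 2 of those 5 genes. Epcam, Trp63, Krt5 and Krt14 together also had to give at least 2 UMIs, Aire at most 1 UMI, Ccl21a fewer than 50 UMIs per 10000, and the collagen genes Col1a1, Col1a2 and Col3a1 together fewer than 20 per 10000. The rule took 248 of 11774 cells, 150 of 3588 in library 1 and 98 of 8186 in library 2. Because these transcripts chose the cells, their levels are given as a description and were not tested.

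Both libraries came from the CD45-depleted thymic stroma of mice of 1 genotype, E2F_M11, in which 2 E2F binding sites in the proximal promoter of Foxn1 had been deleted with CRISPR-Cas9. The study asks how E2F proteins bear on the size of the thymus. Wild-type stroma was not analysed here, so every comparison below sets cell classes of the same E2F_M11 tissue against each other, and none measures the deletion, which all classes carry. The sources used here give neither strain nor age of the mice. Whether each library is a separate animal is not labelled. The fit removes the mean difference between the libraries, so the p-values measure only how unevenly differences between classes repeated in them. That spread may be technical. Thymi were digested with collagenase/dispase and depleted of CD45-positive blood cells on magnetic beads, which sets how many thymocytes remain.

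In the thymus, cortical epithelium supports early thymocytes and selects them on peptides made with the thymoproteasome subunit PSMB11, while medullary epithelium displays tissue antigens under AIRE and draws in maturing thymocytes with CCL19 and CCL21. Both arise from pharyngeal endoderm and depend on the transcription factor FOXN1. TRP63 maintains the progenitors of stratified epithelia, and epithelial cells with high Trp63 but few mature cortical or medullary products have been described as progenitor-like or intertypical. ACKR4 is an atypical chemokine receptor that takes up CCL19, CCL21 and CCL25 without signalling through G proteins.

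Sequences of 300 bases around the annotated start, 250 before and 50 after, are shown for Ackr4 as the defining gene, Isl1 as a transcription factor gene the rule did not use, Foxn1 as the gene whose promoter was edited, and Psmb11 as the gene on which the members divide. They are reference sequence from RefSeq on GRCm38.p6, read 5′ to 3′ on the gene's strand, and they do not show the edited allele. Capitals mark matches to GACGC, the core recognised by FOXN1, on either strand.
Ackr4, chr9:104126594-104126893, minus strand: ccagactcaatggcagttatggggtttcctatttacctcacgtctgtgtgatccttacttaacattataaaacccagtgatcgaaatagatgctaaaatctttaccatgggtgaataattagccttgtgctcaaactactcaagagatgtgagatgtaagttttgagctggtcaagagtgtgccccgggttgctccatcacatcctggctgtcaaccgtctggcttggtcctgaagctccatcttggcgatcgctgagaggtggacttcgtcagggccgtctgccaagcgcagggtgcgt
Isl1, chr13:116309639-116309938, minus strand: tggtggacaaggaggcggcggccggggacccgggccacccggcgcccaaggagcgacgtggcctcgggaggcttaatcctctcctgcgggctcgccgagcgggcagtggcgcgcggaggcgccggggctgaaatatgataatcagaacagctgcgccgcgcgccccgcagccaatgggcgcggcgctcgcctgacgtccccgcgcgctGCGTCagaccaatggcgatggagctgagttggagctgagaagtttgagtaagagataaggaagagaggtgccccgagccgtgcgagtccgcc
Foxn1, chr11:78386559-78386858, minus strand: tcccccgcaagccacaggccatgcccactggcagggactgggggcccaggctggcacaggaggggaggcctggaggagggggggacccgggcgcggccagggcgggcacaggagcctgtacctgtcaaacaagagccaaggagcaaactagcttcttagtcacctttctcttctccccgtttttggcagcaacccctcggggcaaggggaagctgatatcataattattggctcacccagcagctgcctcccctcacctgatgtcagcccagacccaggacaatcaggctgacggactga
Psmb11, chr14:54625060-54625359, plus strand: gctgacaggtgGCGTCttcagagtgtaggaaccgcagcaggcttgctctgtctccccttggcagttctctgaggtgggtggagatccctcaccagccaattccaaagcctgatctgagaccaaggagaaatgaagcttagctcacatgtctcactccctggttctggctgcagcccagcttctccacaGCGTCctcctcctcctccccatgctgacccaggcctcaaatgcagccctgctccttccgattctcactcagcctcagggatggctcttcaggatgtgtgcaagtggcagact

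The core GACGC occurred in 27.2% of 32851 promoter windows of this length. The Isl1 window held 1 match, 42 bases before the start, and the Psmb11 window held 2, at 239 and 62 bases before it. The Ackr4 and Foxn1 windows held none. The E2F words TTTCCCGC, TTTCGCGC, TTTGCCGC and TTTGGCGC, searched on both strands, occurred in 2.26% of windows and in none of these 4, and the p63 motif, a pair of CATG half-sites, occurred in 0.712% and in none of them. Of the 12 genes sought, 10 had an entry. These matches describe letters only, and the sources used here do not give the positions of the deleted Foxn1 sites.

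The libraries differed in depth. The totals were 41075328 UMIs over 5110 barcodes (library 1) and 42583831 UMIs over 19163 barcodes (library 2), and the median kept cell had 8727 and 1874 UMIs. Members had a median of 13585.5 UMIs in library 1 and 7015 in library 2. They made up 4.18% of kept cells in library 1 (95% exact binomial interval 3.55 to 4.89) and 1.20% in library 2 (0.973 to 1.46), and these intervals cover counting error only. With every cell first thinned to 1000 UMIs, the rule found 12 and 13 cells, or 0.334% and 0.159%. The share of members and the depth of the library cannot be told apart. The libraries shared 13 kept barcodes.

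Other classes were cut by the same kind of rule for comparison. Ccl21a-high cells (319 and 290 in libraries 1 and 2) had at least 50 Ccl21a UMIs per 10000. Aire-positive cells (308 and 174) had at least 2 Aire UMIs. Cortical cells (23 and 96) had at least 2 UMIs of Psmb11 and Prss16 together, at least 2 of Psmb11, Prss16, Ly75 and Ccl25 detected, and fewer than 2 of the 5 rule genes. Fibroblasts had at least 20 collagen UMIs per 10000 and thymocytes at least 3 UMIs of T cell markers, both with no UMI of the epithelial genes. Levels are given as counts per 1000000 UMIs summed over a class (CPM), 1 value for each library. The epithelial genes Epcam and Krt8 stood at 455 and 2030 CPM in members of library 1 and at 646 and 1567 CPM in library 2. Because fewer molecules per cell and fewer cells with the gene give the same sum, a CPM does not tell them apart.

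Ackr4 (chromosome 9, 104084157 to 104126933 on GRCm38) stood at 147 CPM in members of library 1 and 202 CPM in library 2. In Ccl21a-high cells it was 6.04 and 12.7 CPM, in Aire-positive cells 2.75 and 3.75 CPM, in cortical cells 12.2 and 21.6 CPM, in fibroblasts 6.37 and 9.21 CPM, and in thymocytes 0 and 0.783 CPM. The Ccl21a-high and Aire-positive classes were open to cells with any number of the 5 genes, so their low Ackr4 was not set by their own rules. The rule did favour a high level in members, and it kept cells with 2 or more of these genes out of the cortical class. Scn1a, which encodes a voltage-gated sodium channel, was 142 and 128 CPM in members against 6.04 and 21.2 CPM in Ccl21a-high, 0.724 and 2.08 CPM in Aire-positive and 20.3 and 12.3 CPM in cortical cells.

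The other rule genes were less distinct. Ptprz1 encodes a receptor phosphatase bound by midkine and pleiotrophin, and was 183 and 231 CPM in members and 131 and 131 CPM in Ccl21a-high cells. Nrtn encodes neurturin, a ligand of the GDNF family, and was 139 and 128 CPM in members and 66.7 and 66.3 CPM in Ccl21a-high cells. Trpm3, a cation channel gene, was lower, at 52.3 and 124 CPM in members and 20.98 and 16.2 CPM in Ccl21a-high cells. Trp63 (chromosome 16, 25683763 to 25892102) was 228 and 312 CPM in members and 233 and 236 CPM in Ccl21a-high cells, so the groups overlapped. It was 30.3 and 46.6 CPM in Aire-positive and 114 and 120 CPM in cortical cells. Summed Trp63 thus set the members above Aire-positive and cortical cells and not apart from Ccl21a-high cells. The rule counted Trp63 among the epithelial genes a member had to show, which favours a high level in members. The name Trp63-high was therefore not tested by these levels.

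**Figure D1:**
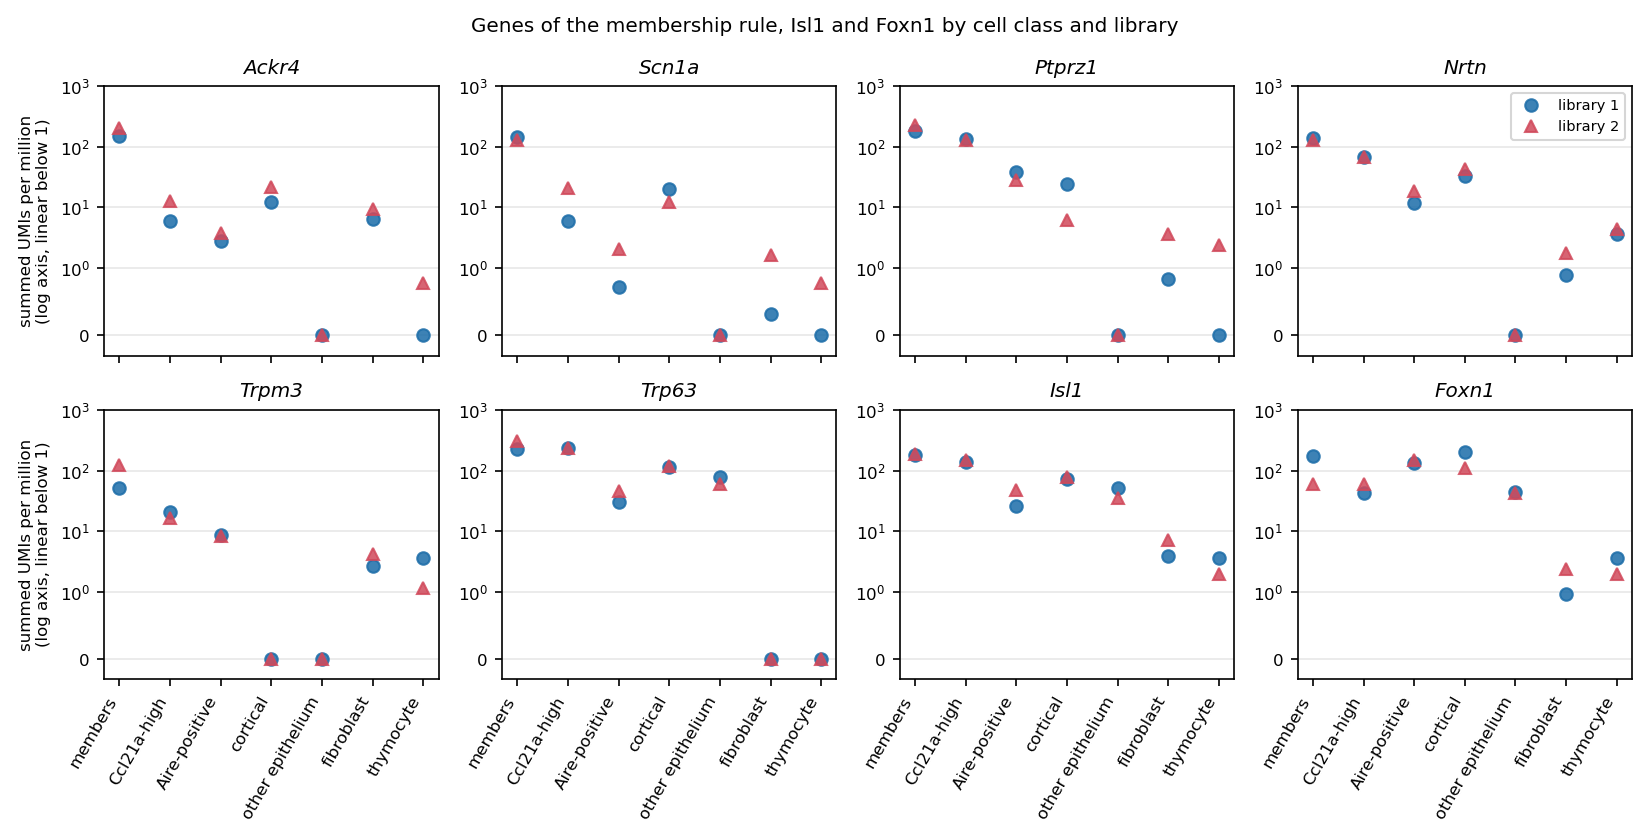
Summed CPM (log axis, linear below 1) of 8 genes in 7 cell classes, with 1 point for each of the 2 libraries. Ackr4 and Scn1a are highest in members, whereas Trp63 and Isl1 are near the same level in members and Ccl21a-high cells. The rule sets the 5 genes to 0 in other epithelium.

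Membership rested on few molecules per cell. Ackr4 had a UMI in 70.0% and 66.3% of members, in 5.33% and 4.14% of Ccl21a-high cells and in 0% and 0.337% of thymocytes, whose median was 2353.5 and 2144.5 UMIs. With cells thinned to 1000 UMIs the share in members was 17.3% and 23.47%. For the 0 of 90 thymocytes of library 1 the count allows a share of up to 3.33% with a detected UMI at that depth, which sets no limit on cells with the transcript below detection. In library 1, 35 members had exactly 2 of the 5 genes, 39 had 3, 38 had 4 and 38 had all 5. In library 2 the numbers were 45, 21, 20 and 12. Just inside the threshold, members with exactly 2 of the genes had 202 and 137 CPM of Trp63 and 115 and 125 CPM of Isl1. Just outside it, cells with exactly 1 that were not in the cortical class had 91.8 and 78.0 CPM of Trp63 and 64.1 and 51.1 CPM of Isl1. The 2 sides were not cut alike, since 14 and 2 of the members with exactly 2 genes met the cortical marker limits. Their median depth was 11417 and 3975 UMIs, against 12159.5 and 2819 in cells with exactly 1. Ackr4 and Ptprz1 were detected together in 58.7% of members in library 1 and 43.9% in library 2. In the rest of the tissue, at least 2 of the genes were detected in 108 and 45 Ccl21a-high cells (33.86% and 15.52% of that class). The same held for 43 and 21 Aire-positive cells (13.96% and 12.07%), 5 and 8 fibroblasts and 0 and 1 thymocytes. Another 10 and 55 such cells were in no class.

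The members divided by their cortical transcripts. In library 1, 68 of 150 members (45.3%, interval 37.2 to 53.7) passed the marker gate that defined cortical cells, and in library 2, 11 of 98 (11.2%, interval 5.74 to 19.2) did. Among Ccl21a-high cells 3.13% and 2.07% passed it, and among Aire-positive cells, whose median of 20677 and 9257 UMIs was above that of members, 4.22% and 7.47%. Counted as Psmb11 and Prss16 UMIs per 10000, 103 members of library 1 lay under 5, 4 between 5 and 15, and 43 at 15 or above. In library 2, 90 lay under 5, 4 between and 4 above. Few members were intermediate in either library, but in library 2 they were as many as those at 15 or above. Only library 1 thus had a clear gap between the 2 ends. Some cells under 5 still passed the gate. This division was made after the values had been seen and is a description.

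**Figure D2:**
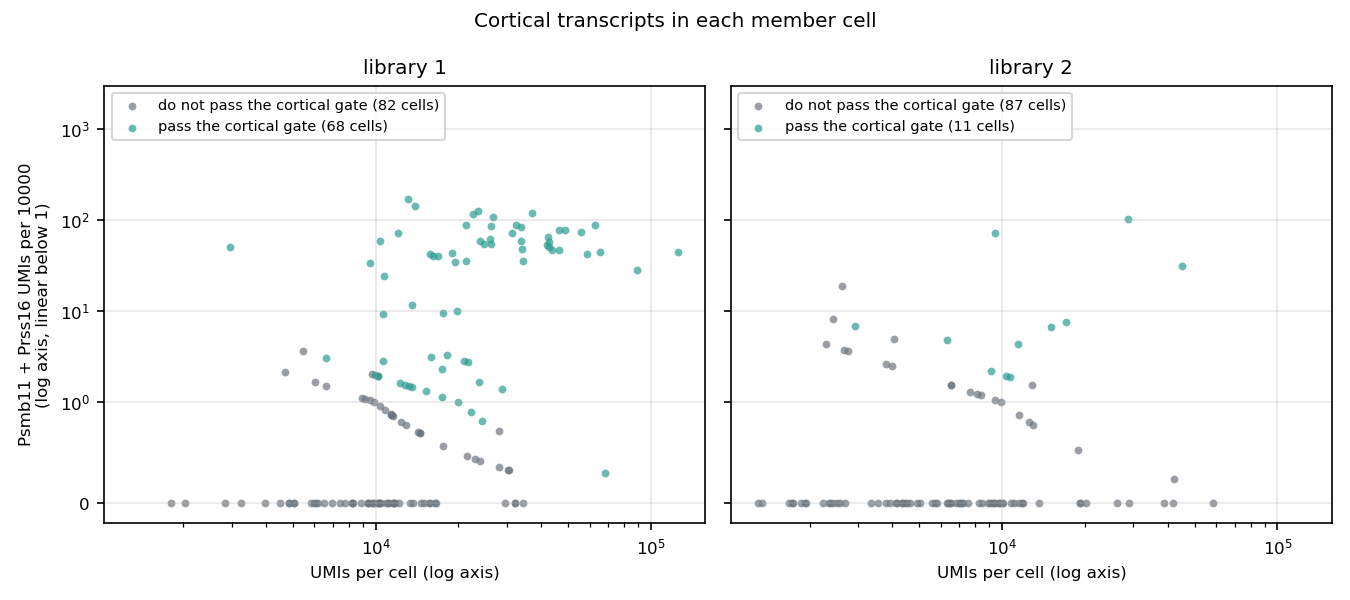
Each point is 1 member cell, by its UMIs (log axis) and its Psmb11 plus Prss16 UMIs per 10000 (log axis, linear below 1), in library 1 (150 cells) and library 2 (98 cells). Green cells pass the cortical gate. In library 1, 43 cells sit at 15 or above and 53 at 0.

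Summed over the members on each side of the gate, Ackr4 was 139 and 259 CPM in members that passed and 163 and 190 CPM in those that did not, Scn1a 149 and 151 against 129 and 123 CPM, and Isl1 154 and 193 against 224 and 185 CPM. Ptprz1 was 136 and 253 against 273 and 226 CPM, Nrtn 117 and 96.5 against 180 and 134 CPM, and Trpm3 31.3 and 66.4 against 92.6 and 136 CPM. Nrtn and Trpm3 were thus lower on the passing side in both libraries. With cells thinned to 1000 UMIs, Isl1 was detected in 22.1% and 27.3% of passing members and 22.0% and 18.4% of the others. In thymocytes, which should lack it, the thinned share was 1.11% and 0.422%.

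The passing members were not alike among themselves. In library 1 the 43 with at least 15 cortical UMIs per 10000 held the 5 rule genes at a summed 381 CPM, the 25 that passed with fewer held 1174 CPM, and the 82 that did not pass held 838 CPM. Ackr4 was 84.1, 312 and 163 CPM in these 3 sets, Ptprz1 76.5, 323 and 273 CPM, and Isl1 119, 265 and 224 CPM. In library 1 the strongly cortical members were the lowest set for each of these genes, and Scn1a was 125, 224 and 129 CPM. In library 2 the sets were 3, 8 and 87 cells, with a summed 531, 1123 and 809 CPM of the rule genes. Ackr4 was 229, 290 and 190 CPM there, so the strongly cortical members were not the lowest set for it. They were the lowest for Ptprz1, at 84.4, 423 and 226 CPM, and for Isl1, at 133, 254 and 185 CPM. Passing members with fewer cortical UMIs thus had the higher summed level of the rule genes in both libraries.

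The 2 sides differed in a set of cortical genes. Psmb11 was 930 and 742 CPM in passing members and 2.01 and 1.27 CPM in the others. Prss16, a thymus-specific serine protease, was 3899 and 2534 against 31.2 and 34.3 CPM, and both genes were read by the gate. Of genes the gate did not read, Tbata was 6619 and 4314 against 65.5 and 96.4 CPM, Ctsl, the protease that shapes class II peptides in cortical epithelium, 12286 and 8706 against 1442 and 969 CPM, and Cxcl12, a chemokine for early thymocytes, 1251 and 1321 against 213 and 203 CPM. Foxn1 was 248 and 199 CPM in passing members and 23.2 and 30.4 CPM in the others. For Psmb11 and Prss16 the gate itself set this difference. For Tbata, Ctsl, Cxcl12 and Foxn1 both passing values lay above both other values. The share of all genes for which this holds was not counted.

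The basal keratin Krt5 ran the other way, at 188 and 60.3 CPM in passing members and 485 and 740 CPM in the others, as did Fst, which encodes the activin antagonist follistatin, at 79.9 and 133 against 329 and 266 CPM. Ly6a, which encodes the surface protein Sca-1, was 640 and 1955 against 1917 and 2360 CPM, and few cells set the passing values. In library 1 Ly6a was 164 CPM in the 43 strongly cortical members, of which 26 had none, and 2130 CPM in the 25 that passed with fewer cortical UMIs. In library 2, 1 cell gave 224 of the 324 Ly6a UMIs of the passing members. Passing members were deeper, with a median of 21866.5 and 10679 UMIs against 10311 and 6525, and gave 1915905 of the 2909029 member UMIs of library 1. Thymocyte markers summed to 1244 CPM in passing members and 123 CPM in the others of library 1, and to 422 and 449 CPM in library 2. At least 2 UMIs of Cd3d, Cd3e, Cd3g, Cd4, Cd8a and Cd8b1 were found in 38.2% and 45.5% of passing members and in 2.44% and 41.4% of the others. The part of depth and of thymocyte RNA in this division was not tested.

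**Figure D3:**
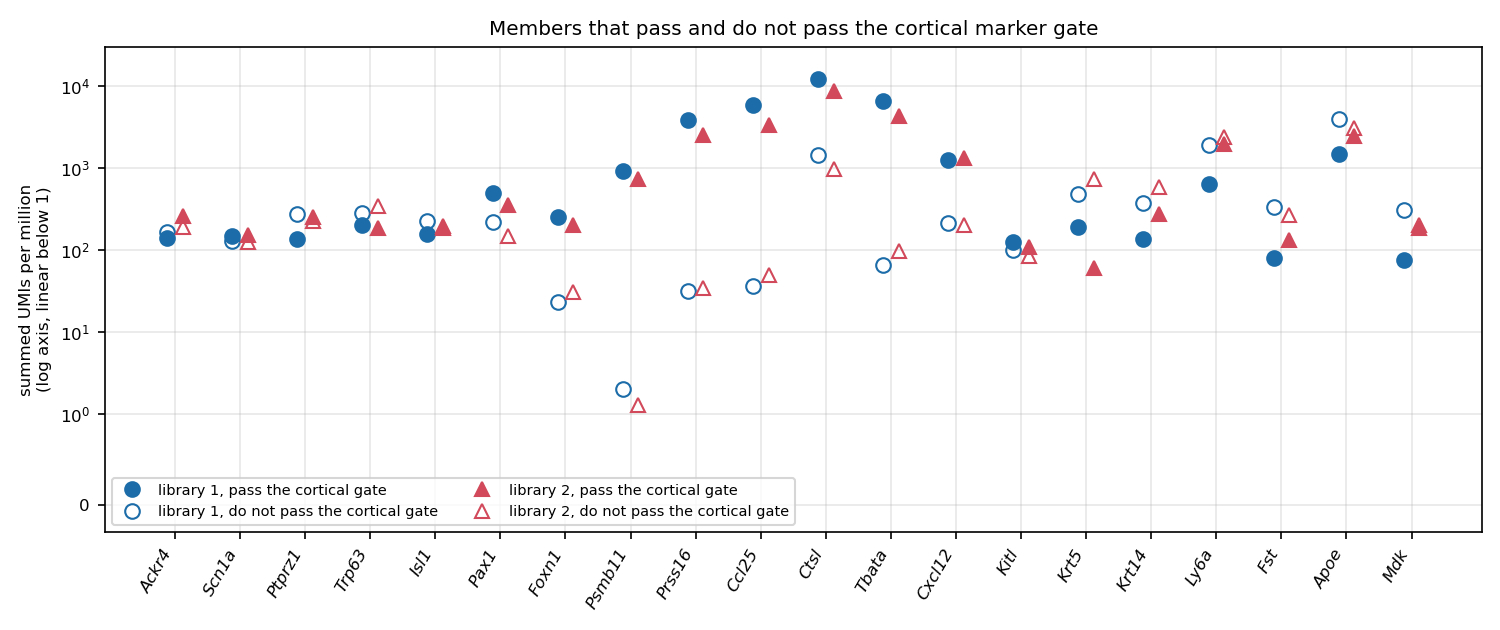
Summed CPM (log axis, linear below 1) of 20 genes in members that pass (filled) and do not pass (open) the cortical gate, by library. Ackr4, Scn1a and Isl1 lie close together, while Foxn1, Psmb11, Prss16, Ccl25, Ctsl, Tbata and Cxcl12 are higher in passing members in both libraries.

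Markers of other cell types were present in members and differed between the libraries. All 8 tuft cell markers were detected, at a summed 65.3 CPM in members of library 1 and 798 CPM in library 2, against 98.5 and 95.9 CPM in Ccl21a-high cells and 727 and 483 CPM in other epithelium, the epithelial cells outside these gates with none of the 5 genes. Keratinocyte markers summed to 70.1 CPM in library 1 (7 of 8 detected, Ivl at 0) and 1556 CPM in library 2 (8 of 8), against 1916 and 2469 CPM in other epithelium. The members of library 2 thus held more tuft marker RNA than other epithelium of either library, and keratinocyte marker RNA below it. In library 2 nearly all of that signal lay in members that did not pass the cortical gate, with 935 CPM of tuft and 1869 CPM of keratinocyte markers. The 12 thymocyte markers summed to 861 and 444 CPM, against 9706 and 7884 CPM in thymocytes. Of 8 Schwann cell markers 4 and 5 were detected, at a summed 26.1 and 31.4 CPM, and Sox10, Cdh19 and S100b were at 0 in both libraries. Fibroblast markers (10 of 10 detected) summed to 844 and 1308 CPM, against 1080 and 1640 CPM in Ccl21a-high cells. The remaining sums were 249 and 304 CPM for mural cells, 164 and 308 CPM for mesothelium, 118 and 481 CPM for secretory and neuroendocrine cells, 104 and 94.3 CPM for microfold cells and 96.6 and 91.2 CPM for macrophages and dendritic cells. Endothelial markers summed to 21.7 and 142 CPM, B cell markers to 8.94 and 15.7 CPM and parathyroid markers to 0.688 and 17.8 CPM, with the parathyroid regulator gene Gcm2 at 0 in both. Over all members no tuft or keratinocyte marker was called in any comparison below. Against Aire-positive cells, 3 of 10 fibroblast markers were called higher (Dcn, Col6a1 and Col6a2) and 1 lower (Mfap5). Of 7 tested mural markers 1 was higher (Tagln) and 1 lower (Myh11), beside 10.9% and 18.3% over all genes. Against Ccl21a-high cells Col6a1, Col6a2 and the mural marker Acta2 were lower, beside 1.32% over all genes. Without the members that passed the cortical gate, 3 of 8 tuft markers were called higher against Ccl21a-high cells (Avil, Trpm5 and Pou2f3). Against Aire-positive cells 3 of 8 were (Trpm5, Gnat3 and Alox5). Over all genes the shares called higher were then 1.39% and 12.4%. The part of these cell types in the results was not tested.

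Raw counts of each class and library were summed and compared with edgeR's quasi-likelihood test with the library as a block, and calls were made at 0.05 on p-values adjusted by Benjamini-Hochberg across the 14230 genes tested. Genes read by any gate were not tested. Gene lists are described by how many members were called, beside the share called over all genes. The lists were chosen with earlier results of these data known, and no list was tested as such.

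Against Ccl21a-high cells, members had less Ccl19, Ccl11, Cxcl14, Cxcl10 and Mdk and more Krt19, Aldh1a1, Ccl20, Cxcl12 and Tbata. In all, 190 genes (1.34%) were called higher and 188 (1.32%) lower, 2.66% together. The total was 251 genes with no library block, and 521 and 841 without the members of library 1 and of library 2. Ccl19, the second CCR7 ligand beside Ccl21a, was 75.6 and 81.8 CPM in members and 426 and 490 CPM in Ccl21a-high cells, with a log2 fold of -2.67 (SE 0.19, edgeR adjusted p = 0.00304). Mdk, which encodes the growth factor midkine, was 153 and 197 against 796 and 809 CPM, a log2 fold of -2.34 (SE 0.20, edgeR adjusted p = 0.00457). For both genes the groups were far apart in each library. Members and Ccl21a-high cells were cut on opposite sides of a Ccl21a limit, so the Ccl19 contrast may lie close to the gate. The part of this cut in the Ccl19 difference was not tested.

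Other genes of secreted factors and transcription factors were called lower. Ccl11, the eosinophil chemokine eotaxin, was 10.3 and 35.6 CPM against 442 and 233 CPM (log2 fold -4.07, SE 0.64), and Cxcl14 was 5.50 and 15.7 against 281 and 104 CPM (log2 fold -4.52, SE 0.60). The interferon-induced chemokine gene Cxcl10 had a log2 fold of -1.83 (SE 0.25). Fgf21 and Wnt10a, both genes of secreted signals, had log2 folds of -2.84 (SE 0.50) and -2.38 (SE 0.46). Heyl, a target of Notch signalling, had one of -2.80 (SE 0.49), and Sox4, a transcription factor gene, of -1.21 (SE 0.20). Dpysl3, listed with progenitor-like thymic epithelium, was 30.6 and 31.4 against 162 and 160 CPM (log2 fold -2.50, SE 0.27). Members were the lower group in both libraries for each of these genes. Without the members that passed the cortical gate Sox4, Fgf21 and Heyl were no longer called (log2 folds -0.92, -1.90 and -2.52), and without the members of library 1 Fgf21, Heyl and Wnt10a were not (-2.25, -3.05 and -1.28).

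Genes called higher fell into those kept and those lost without the members that passed the cortical gate. Krt19, a keratin of simple epithelia that is also on the mesothelial list, was 148 and 278 CPM in members and 11.8 and 12.7 CPM in Ccl21a-high cells, a log2 fold of 4.02 (SE 0.45, edgeR adjusted p = 0.00954). Aldh1a1, which makes retinoic acid from retinal, had 150 UMIs in members and 3 in Ccl21a-high cells over both libraries, a ratio of 59.1 per UMI sequenced (95% counting interval 19.8 to 290). Rnase4 (log2 fold 2.31, SE 0.26), Prelp, a matrix proteoglycan gene (2.47, SE 0.27), and Gstm2, a glutathione transferase gene (3.10, SE 0.41), were also called. These 5 were chosen after their values were seen, from genes called in all 3 comparisons without the passing members. The growth factor gene Fgf1 was 32.3 and 55.6 against 11.8 and 14.8 CPM (log2 fold 1.53, SE 0.26).

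Gng13, a G protein subunit gene of taste and tuft cells, was 113 and 557 CPM against 11.8 and 9.87 CPM (log2 fold 4.63, SE 0.93), and it was higher in the library whose members had 798 CPM of tuft markers. Among members with at least 3 of the 5 genes its log2 fold was 1.10 and it was not called. Ccl20 had a log2 fold of 4.65 (SE 0.67), at 69.4 CPM in library 1 and 10.5 CPM in library 2, and one of 1.01, no longer called, without the cells of highest UMI number. Cxcl12 (log2 fold 2.48, SE 0.51), Tbata (3.90, SE 0.74), Cd83, which stabilises class II molecules on cortical epithelium (5.68, SE 0.77), and the aminopeptidase gene Enpep (3.06, SE 0.54) were called over all members. Without the passing members these 4 were no longer called, at 0.86 for Cxcl12, -1.06 for Tbata, 1.46 for Cd83 and -0.07 for Enpep. Without the members of library 1, Cxcl12 and Enpep were not called either (1.51 and 1.78). Some calls also ended under other settings. With no library block Cxcl10, Wnt10a, Fgf1, Ccl20, Enpep, Prelp and Rnase4 were not called (edgeR adjusted p from 0.0557 for Rnase4 to 0.0988 for Ccl20). With fibroblast and thymocyte sums added Fgf1, Fgf21, Ccl20 and Cxcl12 were not (0.0513 for Fgf21 to 0.115 for Fgf1), and with the stricter barcode filter Fgf1, Sox4, Heyl and Wnt10a were not (0.0559 for Fgf1 to 0.193 for Wnt10a). Fgf1, Cxcl10 and Wnt10a were not called without thymocyte-marker cells (0.0507, 0.0923 and 0.0782), nor Fgf21, Cxcl12, Tbata and Gng13 without the cells of highest UMI number (0.0574 for Gng13 to 0.0834 for Cxcl12). Wnt10a and Ccl20 were not called with Ackr4 required, Ccl20 not with at least 3 of the 5 genes, and Sox4, Fgf21 and Enpep not with cells thinned to 1000 UMIs.

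The total without the passing members was 190 higher (1.39%) and 139 lower (1.01%) of 13697, or 2.40%.

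By role, 6 of 15 tested cortical thymopoiesis genes were called higher and 1 lower against Ccl21a-high cells, and 1 and 1 without the passing members. The median log2 fold of that list was 1.67, against 0.01 over all genes. None of 30 tested basal epithelial genes linked to p63 was called in either direction, nor any of 20 pharyngeal factors, 24 BMP and TGF-beta genes, 20 replication genes, 18 dissociation stress genes, 18 antigen presentation genes or 20 mitotic genes. Of 24 progenitor-like genes, none was called higher and 3 lower, namely Dpysl3, Ccl11 and Sox4. Of 20 medullary maturation genes 1 was higher (Ccl20) and 3 lower (Ccl19 and Tnfrsf11a among them), and of 25 neural adhesion genes none was higher and 3 lower (Scn3b, Gfra2 and Mdk). The growth factor list had 1 of 24 higher and 1 lower, the chemokine list 1 of 14 lower, and the WNT and Notch lists 1 gene lower each, those named above. The median log2 fold was -0.30 in the p63 list and -0.19 in the progenitor-like list. Ly6a, Fst and Apoe, the lipid carrier apolipoprotein E, are in that list and were not called, with Apoe at 2310 and 2957 CPM in members and 2408 and 2707 CPM in Ccl21a-high cells. These shares of 0 do not show that the classes were alike.

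Isl1, a LIM homeobox factor of pharyngeal endoderm and neurons, was 178 and 187 CPM in members and 140 and 150 CPM in Ccl21a-high cells. The members were higher in both libraries, by less than the error of the fit, with a log2 fold of 0.21 (SE 0.29, edgeR adjusted p = 0.777). Pax1, a pharyngeal pouch factor kept in thymic epithelium, was 397 and 181 against 94.1 and 101 CPM (log2 fold 1.47, SE 0.38, edgeR adjusted p = 0.0877), and was called with DESeq2 (adjusted p = 0.0272). Foxn1 was 172 CPM in members of library 1, above the 42.3 CPM of Ccl21a-high cells, and 59.7 CPM in library 2, below their 60.6 CPM (log2 fold 1.00, SE 0.43, edgeR adjusted p = 0.270). Library 1 is also the one with 45.3% passing members, and without those the Foxn1 log2 fold was -1.03 and not called (edgeR adjusted p = 0.153). Without the members of library 2 it was 1.63 and called (edgeR adjusted p = 0.0146).

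**Figure D4:**
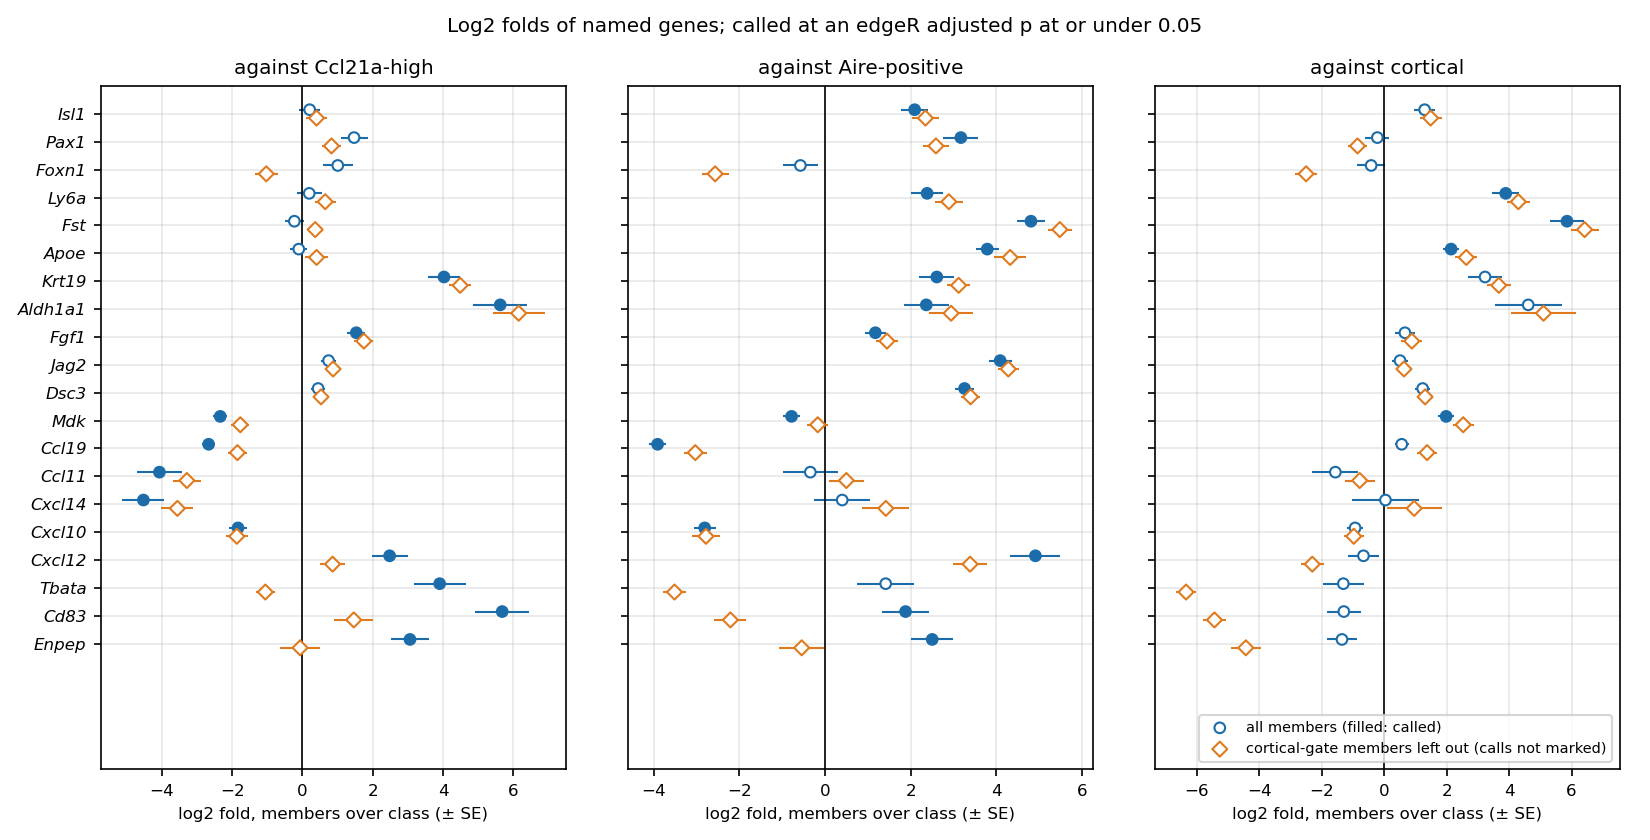
Log2 folds (± SE) of 20 named genes in members over each compared class, for all members (circles, filled where called) and with the members that pass the cortical gate left out (diamonds). Ccl19 and Mdk stay below 0 against Ccl21a-high cells, and Isl1 is near 0 there and above 2 against Aire-positive cells. Tbata and Foxn1 change sign against Ccl21a-high cells.

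Against Aire-positive cells, members had more Dsc3, Lamb3, Jag2, Tgfbr2, Fst and Apoe and less Cd80, Ccl19, Cd74 and Cdk1. Here 1555 genes (10.9%) were called higher and 2609 (18.3%) lower, 29.3% together, and the list counts below are to be read against these shares. Without the members of library 1 the total was 2563. The sums held 6907382 and 2401450 UMIs of Aire-positive cells and 2909029 and 953993 UMIs of members.

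Isl1 was 178 and 187 CPM in members and 26.5 and 47.5 CPM in Aire-positive cells (log2 fold 2.09, SE 0.31, edgeR adjusted p = 0.00191). Of 20 pharyngeal factors 7 were called higher and 5 lower. Pax1 (log2 fold 3.17, SE 0.41), Eya1 (2.11, SE 0.32), Hoxa3 (2.91, SE 0.73) and Pax9 (0.81, SE 0.21), all genes of pharyngeal pouch patterning, rose as well, while Tbx1, Foxa2, Nkx2-6, Ripply3 and Tbx3 were the lower ones. Without the members of library 1, Hoxa3 and Pax9 were not called (2.58 and 0.78), and Pax9 was not with fibroblast and thymocyte sums added or with cells thinned to 1000 UMIs (0.94 and 0.50). Hes1, a Notch target, had a log2 fold of 1.73 (SE 0.25). Foxn1 was 172 and 59.7 CPM against 135 and 147 CPM, higher in library 1 and lower in library 2 (log2 fold -0.57, SE 0.41, edgeR adjusted p = 0.330). Its log2 fold without the passing members was -2.56 and called (edgeR adjusted p = 0.000584). Without the members of library 1 it was -1.48 and called (edgeR adjusted p = 0.0203).

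Of 30 basal epithelial genes, 12 were called higher and 1 lower, and their median log2 fold was 0.66, against -0.12 over all genes. Dsc3, a desmosomal cadherin gene, was 185 and 194 CPM in members and 13.9 and 20.4 CPM in Aire-positive cells (log2 fold 3.26, SE 0.22). Lamb3, a laminin chain of the basement membrane, was 138 and 68.1 against 13.9 and 8.74 CPM (log2 fold 2.91, SE 0.24), and Fgfr2, the receptor for FGF7 and FGF10, was 81.8 and 78.6 against 3.76 and 8.33 CPM (log2 fold 3.62, SE 0.36). Cdh3, which encodes P-cadherin, had a log2 fold of 2.33 (SE 0.25). In each, both member values lay above both Aire-positive values. These genes were picked from those already called, and the share of all genes for which this holds was not counted.

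Of 24 progenitor-like genes 12 were higher and 1 lower, with a median log2 fold of 1.12. Fst was 165 and 243 CPM against 6.08 and 5.83 CPM (log2 fold 4.81, SE 0.33, edgeR adjusted p = 0.000246), Apoe 2310 and 2957 against 101 and 244 CPM (log2 fold 3.79, SE 0.27), and Ly6a 1076 and 2289 against 237 and 276 CPM (log2 fold 2.38, SE 0.38). Lifr, the receptor for leukaemia inhibitory factor, had a log2 fold of 4.29 (SE 0.47). Apoe, as given above, was also high in Ccl21a-high cells.

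Genes of signalling pathways were called in both directions. Of 16 Notch genes 6 were higher and 2 lower (Hes6 and Mfng), with the ligand gene Jag2 at 123 and 144 CPM against 6.22 and 7.08 CPM (log2 fold 4.09, SE 0.27), the ligand gene Dll1 at a log2 fold of 3.05 (SE 0.46) and the target Hey1 at 4.84 (SE 0.40). With cells thinned to 1000 UMIs Hey1 fell to 2.39 (SE 1.38) and was not called (edgeR adjusted p = 0.237). Of 24 BMP and TGF-beta genes 12 were higher and 2 lower (median log2 fold 1.04), among them the receptor genes Tgfbr2 (log2 fold 3.49, SE 0.39) and Tgfbr3 (3.31, SE 0.29) and the BMP target Id1 (2.79, SE 0.50). Of 28 WNT genes 7 were higher and 4 lower, with Wnt4, a ligand that acts on thymic epithelium, at 490 and 316 against 60.2 and 92.4 CPM (log2 fold 2.13, SE 0.33) and the receptor gene Fzd3 at 2.27 (SE 0.36). Egfr, the receptor for epidermal growth factor, had a log2 fold of 2.51 (SE 0.25), in a growth factor list with 6 of 24 higher and 4 lower.

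Medullary maturation genes were lower, 18 of 20, with 1 higher (Ltbr), and their median log2 fold was -3.14. Cd80, a costimulatory ligand gene, was 2.41 and 3.14 CPM in members and 75.4 and 71.6 CPM in Aire-positive cells (log2 fold -5.06, SE 0.49). Ccl19 had a log2 fold of -3.91 (SE 0.19) and Ccl22, a chemokine gene for CCR4-bearing thymocytes, one of -3.56 (SE 0.80). Of 18 antigen presentation genes 9 were lower and 1 higher, with Cd74, the class II invariant chain, at 6692 and 5646 against 14940 and 14047 CPM (log2 fold -1.48, SE 0.19) and H2-Eb1 at -1.43 (SE 0.17). Neither was called with fibroblast and thymocyte sums added (edgeR adjusted p = 0.148 and 0.233). H2-DMa, which encodes a chain of the class II peptide editor, was the 1 higher (log2 fold 0.67, SE 0.20, edgeR adjusted p = 0.0368). The interferon-induced chemokine genes Cxcl9 and Cxcl10 had log2 folds of -6.32 (SE 0.80) and -2.81 (SE 0.25), in a chemokine list with 1 of 14 higher and 7 lower. The Aire-positive class was cut on Aire, itself a mark of maturation, so this contrast is close to the gate.

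Mitotic genes were called lower as well. None of 20 mitotic genes was called higher and 12 lower (median log2 fold -2.20), among them Cdk1, the mitotic kinase gene, at 8.59 and 3.14 CPM in members against 55.2 and 47.1 CPM (log2 fold -3.07, SE 0.74) and Ccnb1 (-3.07, SE 0.59), which was -1.43 and not called without the cells of highest UMI number, and not called with no library block (-3.06, edgeR adjusted p = 0.0588). Of 20 replication genes 6 were lower and none higher. In the list of E2F, RB and cyclin-dependent kinase inhibitor genes, 2 of 25 were higher (Tfdp2 and Ccnd3) and 4 lower (Tfdp1, Ccnd2, E2f7 and Cdkn2b), shares no larger than those over all genes. The E2F partner genes Tfdp2 and Tfdp1 had log2 folds of 1.90 (SE 0.25) and -2.52 (SE 0.23), and the G1 cyclin genes Ccnd3 and Ccnd2 of 1.07 (SE 0.31) and -1.80 (SE 0.23). Against Ccl21a-high cells no gene of these 3 lists was called over all members, and Ccnd2 and Cdkn1a were called higher without those that passed the cortical gate.

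Of 25 neural adhesion and excitability genes, 5 were higher and 10 lower against Aire-positive cells. Scn9a, a sodium channel gene like the rule gene Scn1a, was 0.688 and 2.10 against 35.3 and 29.6 CPM (log2 fold -5.11, SE 0.58). Dissociation stress genes were called higher in 10 of 18 and lower in none, with Fos at 710 and 1263 against 215 and 234 CPM (log2 fold 1.85, SE 0.29), and their part in the other differences was not tested.

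Of 15 cortical genes, 7 were higher and 2 lower over all members. Cxcl12 was 897 and 397 CPM against 9.70 and 30.0 CPM (log2 fold 4.91, SE 0.58) and Ctsl was 8584 and 2313 against 143 and 327 CPM (log2 fold 4.21, SE 0.71). Cd83 had a log2 fold of 1.88 (SE 0.55) over all members and -2.21 without those that passed the cortical gate, and 0.41, not called, without the members of library 1. It was not called either without the cells of highest UMI number (0.90) or with cells thinned to 1000 UMIs (1.49). Without the passing members 4 cortical genes were called higher and 7 lower, and the total was 1704 genes higher (12.4%) and 2229 lower (16.3%) of 13697, or 28.7%. Over all members, 89 genes (0.625%) were called higher and 91 (0.639%) lower against both medullary classes, and 85 (0.621%) and 57 (0.416%) without the passing members. The tuft marker Trpm5 was among those 85.

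**Figure D5:**
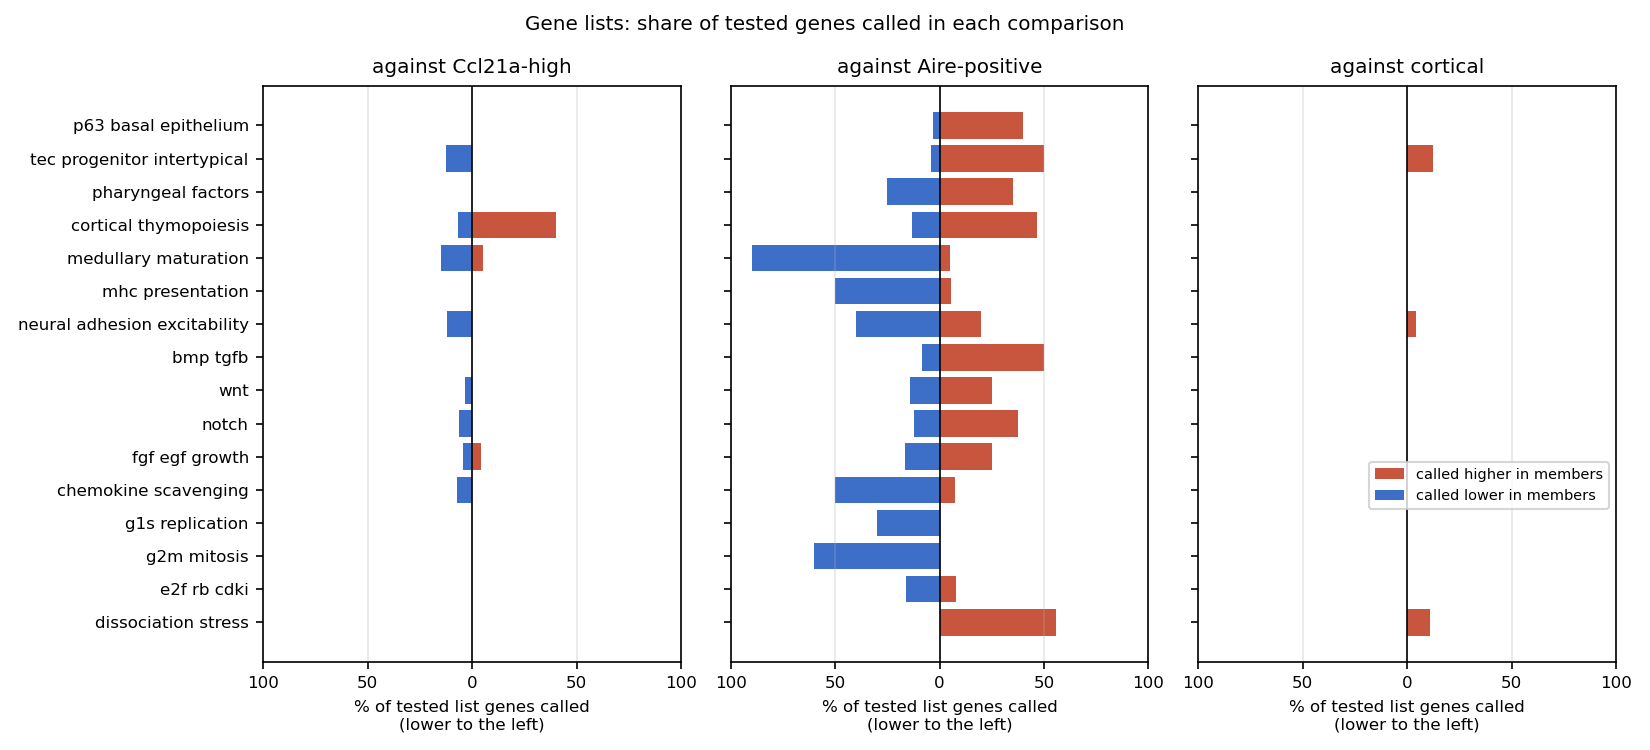
Percent of the tested genes of 16 lists called higher (right, red) or lower (left, blue) in members, by comparison. Few genes of any list are called against Ccl21a-high cells except the cortical list, and most medullary maturation genes are lower against Aire-positive cells.

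Against cortical cells, members had more Ly6a, Fst, Apoe and Mdk, but few genes were called. The cortical sums held 246467 and 324715 UMIs. In all, 14 genes (0.0984%) were called higher and 1 (0.00703%) lower, 0.105% together, while 1710 had an unadjusted p under 0.05. The count ran from 0 with a stricter barcode filter, and 2 with no library block, to 554 without the members that passed the cortical gate, and DESeq2 gave 104 higher and 43 lower. It was 347 without the members of library 1 and 27 without those of library 2. Ly6a was 1076 and 2289 CPM in members and 44.6 and 182 CPM in cortical cells (log2 fold 3.89, SE 0.43, edgeR adjusted p = 0.0408). Apoe was 2310 and 2957 against 434 and 816 CPM (log2 fold 2.14, SE 0.26), and Mdk 153 and 197 against 32.5 and 55.4 CPM (log2 fold 1.99, SE 0.25). Fst had 712 UMIs in members and 2 in cortical cells over both libraries, a ratio of 52.6 (95% counting interval 14.5 to 435). In each gene both member values lay above both cortical values. These genes too were picked from those called, and the share of all genes so placed was not counted. With no library block, Ly6a, Apoe and Mdk were not called (edgeR adjusted p = 0.0668, 0.136 and 0.0668).

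Of the other genes called higher, Jun (log2 fold 1.86, SE 0.22) and Egr1 (2.36, SE 0.27) belong to the dissociation stress list, in which 2 of 18 were called. All 18 had a positive log2 fold, with a median of 1.28. The progenitor-like list had 3 of 24 higher, those named above, with a median log2 fold of 1.71 against 0.10 over all genes, and the neural list had Mdk. No gene of the other lists was called, with a median log2 fold of -0.98 in the cortical and -2.12 in the mitotic list. Bcam, an adhesion receptor gene for laminin, had a log2 fold of 2.92 (SE 0.35) and the interferon-induced gene Isg15 one of 2.50 (SE 0.32), both chosen after their values were seen. Jun, Egr1, Bcam and Isg15 were not called with no library block (edgeR adjusted p from 0.0662 for Egr1 to 0.103 for Isg15). Isl1 was 178 and 187 CPM against 73.0 and 77.0 CPM, with the groups apart in both libraries, and was not called (log2 fold 1.30, SE 0.35, edgeR adjusted p = 0.227). Krt19 was not called either (log2 fold 3.23, SE 0.54, edgeR adjusted p = 0.0782), though it was with DESeq2 (adjusted p = 6.31e-05). Foxn1 was 172 and 59.7 CPM against 203 and 110.9 CPM (log2 fold -0.41, SE 0.44, edgeR adjusted p = 0.769).

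Of the members, 68 and 11 themselves passed the cortical gate, so the 2 classes overlapped on those markers. The part of this in the number of calls was not tested. With them left out, 262 genes were called higher (1.91%) and 292 lower (2.13%) of 13697, or 4.04%. Foxn1 was among the lower ones (log2 fold -2.50, edgeR adjusted p = 0.00638). The log2 folds of Ly6a, Fst, Apoe and Mdk were then 4.30, 6.42, 2.63 and 2.53. Of 18 dissociation stress genes 11 were then called higher and 0 lower, with Fos, Jun and Egr1 among the 11. The part of such stress in the other differences was not tested. Thymocyte markers summed to 2467 and 2073 CPM in cortical cells, above the 861 and 444 CPM of members, and their part in the calls was not tested. No gene was called in the same direction in all 3 comparisons over all members. Without the passing members 31 were called higher and 8 lower in all 3 (0.226% and 0.0584%), led by Zfp185 and Krt19. The 31 included Gng13, the gene of taste and tuft cells named above.

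Over 16 sums of classes and libraries, the genes whose CPM followed the mean of Ackr4, Scn1a and Ptprz1 most closely were Has3, a hyaluronan synthase gene (Pearson r = 0.869), 1110012L19Rik (0.852), Dlk2 (0.850), the progesterone receptor gene Pgr (0.847), Vmac (0.847), Kazald1 (0.841), Wscd1 (0.835), Nbdy (0.830), Gm10638 (0.830) and the glutamate receptor gene Grm8 (0.826), among 11003 genes compared. Sums of 1 library share its depth, and the rule chose the members on these genes, so this is a description. Dlk2 was 25.1 and 36.7 CPM in members and 3.81 and 4.23 CPM in Ccl21a-high cells, and Pgr was 44.0 and 45.1 against 8.90 and 22.6 CPM. Kazald1 was 99.7 and 129 CPM in members and 35.0 and 67.7 CPM in Ccl21a-high cells.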

How the data were processed

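Droplet libraries (10x 3′ chemistry) were analysed from raw UMI counts per gene and barcode (32285 features), which the authors deposited without normalisation. Cell Ranger 7, Seurat 4 and mm10 are named by the submitters' processing notes, but the matrices carry Cell Ranger 6.0.0, per the file headers. The sources used here give no barcode filter of the authors.

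The members and gene lists were chosen with earlier results of these data known. Cells were classed by gates on raw counts, not by clustering, and no doublet caller was run. Counts were summed per library and class. The 10 sums of members, Ccl21a-high, Aire-positive, cortical and other epithelial cells were fitted with edgeR 4.0.16 (R 4.3.3, TMM, filterByExpr, library as a block, 4 residual degrees of freedom, 14254 genes, coefficient of variation 0.244), and 24 gate genes were not tested. Each SE was computed as the log2 fold over the square root of F. The script was tested on simulated counts. The block rests on both classes of a library coming from 1 cell suspension. DESeq2 1.42.0 and limits on membership, depth and barcodes were tried as alternatives. Named genes were every rule gene and Isl1, genes called in all 3 comparisons, up to 5 per direction of each list by mean fold, pharyngeal factors with at least 20 UMIs, and the 10 closest in level to the rule genes. Library 1 members gave 2909029 UMIs and library 2 members 953993, so low genes are more precise in library 1. Of the 32285 features, 32158 matched the GENCODE annotation of GRCm38. Some genes that met this rule are not reported here.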

Additional observations from a re-analysis of the deposited data

How the results depend on the processing

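Counts of called genes moved with the settings. Against Ccl21a-high cells the 378 genes became 569 with DESeq2, 1191 without a filter on low counts, 251 with no replicate block, 845 with at least 3 of the 5 genes required, 702 without cells that hold thymocyte markers and 156 with cells thinned to 1000 UMIs. Leaving out the members of 1 library gave 521 to 841. Against Aire-positive cells the 4164 genes became 1171 after thinning, where 5019 genes could be tested, and 2563 to 4412 without the members of 1 library. Against cortical cells the 15 genes became 147 with DESeq2 (104 higher, 43 lower), 422 without the filter, 2 with no replicate block, 2 with fibroblast and thymocyte sums added, 107 with at least 3 of the 5 genes, 69 with Ackr4 required, 0 with the stricter barcode filter (1493 at an unadjusted p under 0.05), 396 without thymocyte-marker cells, 187 without the cells of highest UMI number, 79 after thinning, 554 without members that passed the cortical gate, and 27 to 347 without the members of 1 library. The leave-out of cortical-gate members and of 1 library's members was chosen after seeing the data. The cause of these shifts was not tested. The replicate block pairs classes within a library, and without it 15 of 72 called values for named genes lost the call.

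The mean share of members over libraries was 2.69%, 0.247% after thinning, and 1.20% to 4.18% in 1 library alone. Among 79 named values, those that changed sign were Foxn1 against Ccl21a-high cells (-1.03), Enpep (-0.067) and Tbata (-1.06) there, and Cd83 against Aire-positive cells (-2.21), all without the cortical-gate members. Without the members of library 1 and of library 2 in turn, Foxn1 was -1.48 and 0.03 against Aire-positive cells and -1.33 and 0.19 against cortical cells. In 1 library alone it was -1.55 and 0.11 against Aire-positive cells. It came to 0.14 against cortical cells with the stricter barcode filter. Low genes of the cortical class, with 571182 UMIs in all, are limited by depth. Leaving out a whole library leaves no residual degrees of freedom, so such values have no test.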
